A study of Homo sapiens with 6 samples.

Results

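The genes of transforming growth factor beta (TGF-beta) signalling described here are 10 in number. They are the ligand genes TGFB1, TGFB2 and TGFB3, the receptor genes TGFBR1, TGFBR2 and TGFBR3, and the SMAD genes SMAD2, SMAD3, SMAD4 and SMAD7. They were picked out on the array by gene symbol, and all 10 were read, among 18377 genes. A probe set paired with a single symbol was required, and 9 of the genes had 1 such probe set. SMAD2 had 2, and the brighter of them over the 6 arrays was kept.

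TGF-beta ligands are secreted as latent complexes with their own propeptide and a latent TGF-beta binding protein, and are released by integrins, thrombospondin or proteases. The active dimer binds the type II receptor TGFBR2, which phosphorylates the type I receptor TGFBR1, while the co-receptor TGFBR3, or betaglycan, presents ligand and TGF-beta 2 above all. TGFBR1 phosphorylates SMAD2 and SMAD3, which enter the nucleus with SMAD4 and act on target genes, SMAD7 among them, whose product turns the receptor off. In mesenchymal breast cancer cells the pathway is known for invasion and metastasis, and its growth arrest arm is often lost.

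RNA came from MDA-MB-231 (MDA-MB231 in the labels), an established human breast cancer line of mesenchymal, triple-negative character. The GHSROS group was 3 samples of cells carrying GHSROS in the pTargeT plasmid, and the empty-vector group was 3 samples of cells carrying pTargeT alone, so all 6 were transfected and shared the plasmid. GHSROS is a long noncoding RNA read from the strand opposite the ghrelin receptor gene GHSR, and no probe set was paired with it alone, so the labels could not be checked by its level. Whether the transfected cells were pools or single clones, and how long they had carried the plasmid, was not given in the labels. The medium of all samples held calf serum.

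All values are log2 expression, and the 6 arrays had medians between 6.56 and 6.65 over 28869 probe sets. Every one of 8 markers of mesenchymal breast cancer cells, VIM and AXL among them, lay above the array median on every array. Of 8 luminal markers 3 lay below it on every array, ESR1, PGR and CDH1. Of the others, GATA3, FOXA1, EPCAM, ERBB3 and KRT8, 4 lay above it on every array. The same held above for 1 of 8 fibroblast, 1 of 4 leukocyte and 2 of 5 endothelial markers, and below for 6, 3 and 3 of them. GHSROS array 3 and empty-vector array 1 stood apart from the other arrays, and whether the labels of this pair were exchanged could not be settled from the files. On these a list of 29 mitosis genes had its lowest means, 9.96 and 9.93, against 10.75 to 10.98 on the other 4, and a list of 17 ATF4 and stress genes its highest, 10.27 and 10.25, against 9.24 to 9.72. Both arrays were the highest or the lowest of the 6 for 39.2% of all genes. The members' differences are therefore given with and without this pair.

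The 3 ligand genes lie on different chromosomes, TGFB1 on 19, TGFB2 on 1 and TGFB3 on 14. The 250 bases before their outermost RefSeq starts are shown as sequence only, and their part in the ligands' array values was not tested. Sequences run 5′ to 3′ on the gene's own strand (RefSeq, GRCh38.p14), with capitals marking TATAAA (the TATA box), GGGCGG (the GC box bound by SP1) and CAGAC (a SMAD-binding sequence), each searched on both strands. TGFB1 is at chr19:41353923-41354172 (minus strand), TGFB2 at chr1:218345086-218345335 (plus strand) and TGFB3 at chr14:75983012-75983261 (minus strand).
TGFB1: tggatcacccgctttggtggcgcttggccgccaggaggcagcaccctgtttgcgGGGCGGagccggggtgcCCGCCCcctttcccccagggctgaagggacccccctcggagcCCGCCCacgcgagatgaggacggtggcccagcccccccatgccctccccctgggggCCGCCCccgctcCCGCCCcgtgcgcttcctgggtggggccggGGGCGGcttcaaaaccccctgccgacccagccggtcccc
TGFB2: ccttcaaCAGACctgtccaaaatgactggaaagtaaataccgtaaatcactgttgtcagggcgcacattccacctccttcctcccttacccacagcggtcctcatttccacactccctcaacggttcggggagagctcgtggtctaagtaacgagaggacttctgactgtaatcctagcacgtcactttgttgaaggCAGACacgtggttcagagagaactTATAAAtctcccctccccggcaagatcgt
TGFB3: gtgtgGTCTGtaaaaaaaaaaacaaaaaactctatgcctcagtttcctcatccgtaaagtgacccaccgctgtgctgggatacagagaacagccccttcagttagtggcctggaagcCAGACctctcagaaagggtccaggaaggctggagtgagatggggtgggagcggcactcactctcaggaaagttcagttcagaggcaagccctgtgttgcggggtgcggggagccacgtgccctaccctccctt

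The TGFB1 window was 76.8% G and C and held GGGCGG at 6 places, with neither of the other motifs. The TGFB2 window was 50.4% G and C, with 1 TATAAA near its end and CAGAC at 2 places. The TGFB3 window was 54.8% G and C, with CAGAC at 2 places. Across 34943 windows of all genes, taken at every RefSeq start and not only the outermost, 10.8% held TATAAA, 42.5% GGGCGG and 38.0% CAGAC. Their median was 58.0% G and C. RefSeq windows were found for all 10 genes, and 9 had a window wholly before the gene's outer bound. Of those 9, 1 held TATAAA, 4 held GGGCGG and 3 held CAGAC. Of all 26 windows of the 10 genes, the like set, 3 held TATAAA, 11 GGGCGG and 10 CAGAC, shares near those of all genes. These matches describe the letters of the windows and say nothing of which factors bind there.

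None of the 10 genes differed between GHSROS and empty-vector arrays beyond the spread between replicates. In limma 0 of 10 passed an adjusted p of 0.05, where 0% of all 18377 genes did, and the adjusted p was 1 throughout. The unadjusted p was under 0.05 for 0 of the 10, against 1.77% of all genes, of which 0.974% of all genes were higher with GHSROS and 0.794% lower. The groups overlapped for each of the 10, and 5.51% of all genes had groups that did not overlap. Of the 10, 8 had a log2 fold change above 0, against 50.9% of all genes, but their median was 0.03, beside 0.00 over all genes. The difference between groups held a median of 6.44% of the members' variance over the arrays, and 6.12% for all genes.

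**Figure D1:**
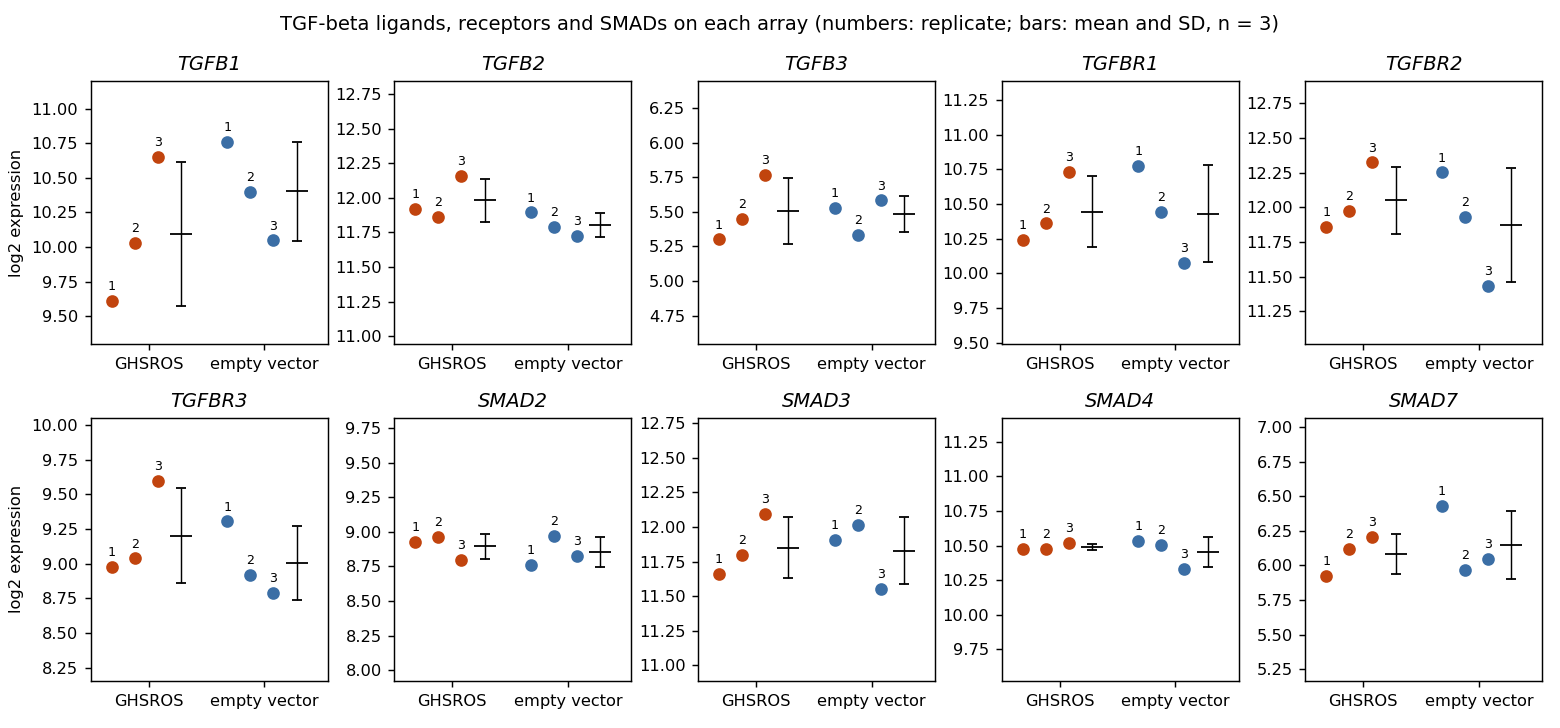
Log2 expression of each of the 10 genes on the 6 arrays (vertical axis, the same span in every panel), with GHSROS samples in orange on the left and empty-vector samples in blue on the right; numbers are replicates, and bars give the mean and SD of 3. The groups overlap in every panel, and TGFB1 has the widest range, 1.15.

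Of the ligand genes, TGFB1, which encodes the most widely expressed ligand, varied the most. It was at 9.61, 10.03 and 10.65 in GHSROS arrays 1, 2 and 3, against 10.76, 10.40 and 10.05 in empty-vector arrays 1, 2 and 3. The lowest value was GHSROS array 1 and the highest empty-vector array 1, with GHSROS array 3 close below it. The means were 10.10 ± 0.52 with GHSROS and 10.40 ± 0.36 with the empty vector (SD, n = 3 each), a log2 fold change of -0.31 (SE 0.29, 95% interval -0.99 to 0.37 in limma). The range over the arrays, 1.15, exceeded that of 96.4% of genes. Leaving out GHSROS array 1 gave a difference of -0.06, and leaving out empty-vector array 1 gave -0.13. Without GHSROS array 3 it was -0.58, with an unadjusted p of 0.0413 and an adjusted p of 1.00 in limma, the only omission of 1 array in which a member fell below 0.05 unadjusted. Without the pair that stood apart it was -0.40 (SE 0.18, 95% interval -0.83 to 0.02), and the remaining GHSROS values of 9.61 and 10.03 lay below the remaining empty-vector values of 10.40 and 10.05, the closest of them by a narrow margin.

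TGFB2, the ligand that needs betaglycan for strong receptor binding, was at 11.92, 11.86 and 12.16 in GHSROS arrays 1 to 3, against 11.89, 11.79 and 11.73 in empty-vector arrays 1 to 3. GHSROS array 3 was the highest of all and the groups overlapped only because empty-vector array 1 lay above GHSROS array 2. Its log2 fold change was 0.18 (SE 0.11, 95% interval -0.08 to 0.43), and 42.9% of its variance lay between the groups, the largest share among the 10 genes. It stayed between 0.09 and 0.24 when single arrays were left out, the lowest without GHSROS array 3, and was 0.13 without the pair. TGFB3, whose product acts in palate and wound healing, lay below the array medians on every array, at 5.30, 5.45 and 5.77 with GHSROS, against 5.53, 5.33 and 5.58 with the empty vector. Its log2 fold change of 0.02 (SE 0.14, 95% interval -0.31 to 0.36) turned to -0.11 with GHSROS array 3 left out and to -0.05 with empty-vector array 2 left out, and was -0.082 without the pair. A value this low does not show whether TGFB3 was transcribed.

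All 3 receptor genes were highest on the pair that stood apart, and their groups overlapped. TGFBR1, the type I receptor kinase, was at 10.24, 10.36 and 10.73 in GHSROS arrays 1 to 3, against 10.78, 10.45 and 10.07 in empty-vector arrays 1 to 3. The group means were nearly equal, 10.44 ± 0.26 with GHSROS and 10.43 ± 0.35 with the empty vector (SD, n = 3 each), and the log2 fold change was 0.01 (SE 0.20, 95% interval -0.47 to 0.50). TGFBR2, the ligand-binding type II kinase, was at 11.86, 11.97 and 12.32 with GHSROS, against 12.25, 11.93 and 11.43 with the empty vector. Empty-vector array 3 was the lowest for both kinases, and its omission was the only one of 1 array to turn the TGFBR2 difference of 0.18 (SE 0.22, 95% interval -0.35 to 0.71), which was -0.04 without it and 0.37 without empty-vector array 1. Without the pair the differences were 0.04 for TGFBR1 and 0.23 for TGFBR2. For TGFBR1 the difference was -0.17 without empty-vector array 3 and -0.13 without GHSROS array 3.

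TGFBR3, the gene of betaglycan, was at 8.97, 9.04 and 9.60 in GHSROS arrays, against 9.30, 8.92 and 8.79 in empty-vector arrays. GHSROS array 3 was the highest and empty-vector array 3 the lowest. Its log2 fold change was 0.20 (SE 0.21, 95% interval -0.29 to 0.69), the largest positive value of the 10. The value moved with either array of the pair that stood apart. It fell to 0.0017 when only GHSROS array 3 was dropped, and rose to 0.35 when only empty-vector array 1 was. With the whole pair dropped the difference was 0.15 (SE 0.11).

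**Figure D2:**
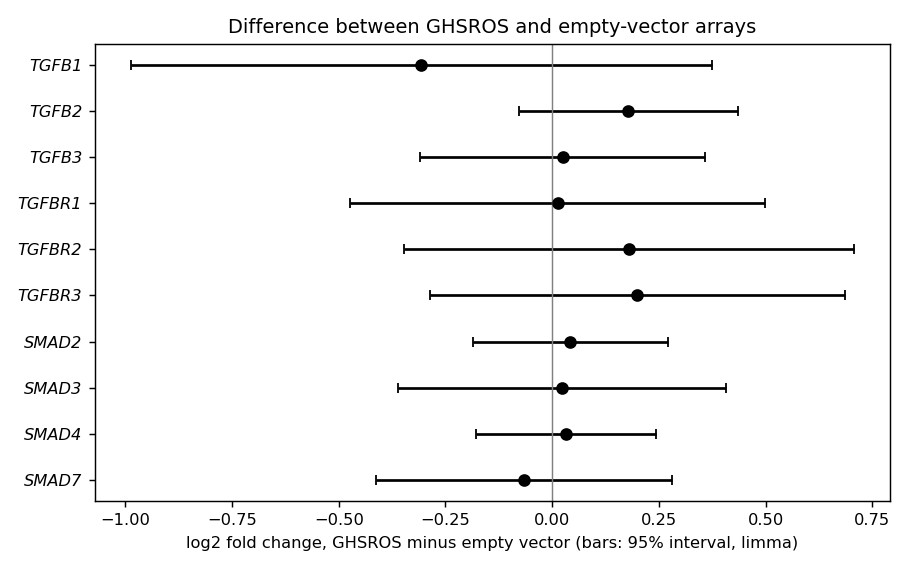
Log2 fold change of each gene, GHSROS minus empty vector (horizontal axis), with 95% intervals from limma over 3 arrays a group. All 10 intervals include 0, and those of SMAD2 and SMAD4 are the narrowest, while that of TGFB1 spans -0.99 to 0.37.

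Of the SMAD genes, SMAD4 and the brighter SMAD2 probe set varied less over the arrays than SMAD3 and SMAD7 did. SMAD4, the partner shared by all receptor-activated SMADs, was at 10.47, 10.48 and 10.52 in GHSROS arrays, against 10.53, 10.50 and 10.33 in empty-vector arrays. Its whole range, 0.20, exceeded that of only 12.2% of genes, and the log2 fold change was 0.03 (SE 0.09, 95% interval -0.18 to 0.24). SMAD2, a direct substrate of TGFBR1, was at 8.93, 8.96 and 8.80 with GHSROS, against 8.76, 8.97 and 8.83 with the empty vector, a log2 fold change of 0.04 (SE 0.10, 95% interval -0.19 to 0.27). Its dimmer probe set, at 8.63, 8.58 and 7.91 with GHSROS and 8.20, 8.45 and 8.38 with the empty vector, gave a log2 fold change of 0.03 and had a wider range, 0.72. On both probe sets the lowest values were those of GHSROS array 3 and empty-vector array 1. The SMAD2 difference was -0.0043 without empty-vector array 1 and the SMAD4 difference -0.03 without empty-vector array 3. Without the pair they were 0.05 and 0.06.

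SMAD3, the other substrate, which binds DNA directly, was at 11.66, 11.80 and 12.09 in GHSROS arrays, against 11.91, 12.02 and 11.56 in empty-vector arrays. The log2 fold change was 0.02 (SE 0.16, 95% interval -0.36 to 0.41), and it was -0.10 with GHSROS array 3 left out and -0.11 with empty-vector array 3 left out, and -0.058 without the pair. SMAD7, the inhibitor that TGF-beta itself induces, lay below the array medians on all arrays. It was at 5.92, 6.12 and 6.21 with GHSROS, against 6.43, 5.97 and 6.05 with the empty vector, where array 1 was the highest of the 6. Its log2 fold change was -0.07 (SE 0.15, 95% interval -0.41 to 0.28), and it turned to 0.01 when GHSROS array 1 was left out and to 0.07 when empty-vector array 1 was, and it was 0.012 without both GHSROS array 3 and that array. SMAD2, SMAD4 and SMAD7 all lie on chromosome 18, and their differences of 0.04, 0.03 and -0.07 were each smaller than their standard errors.

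Over single arrays the members followed the 2 arrays that stood apart. GHSROS array 3 and empty-vector array 1 were the highest of the 6 for TGFB1, TGFBR1, TGFBR2, TGFBR3, SMAD4 and SMAD7, and the lowest for SMAD2, together 7 of 10 genes (70.0%) against 39.2% of all genes. By direction, 18.9% of all genes were highest on both and 20.3% lowest. With the arrays centred on their medians the count was 5 of 10, without SMAD4 and SMAD7, and after quantile normalization 6 of 10, without SMAD7. The gap to the next array was 0.25 for TGFB1, 0.29 for TGFBR1, 0.28 for TGFBR2 and 0.27 for TGFBR3, but 0.09 for SMAD7, 0.03 for SMAD2 and 0.01 for SMAD4. On the dimmer SMAD2 probe set it was 0.18. The mean of the 3 receptor genes was 10.36, 10.46 and 10.89 in GHSROS arrays 1 to 3, against 10.78, 10.43 and 10.10 in empty-vector arrays 1 to 3. Mitosis genes were lowest and ATF4 genes highest on the same arrays, and their part in the receptor values was not tested. In bulk RNA, fewer cells of a kind and less RNA per cell cannot be told apart.

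**Figure D3:**
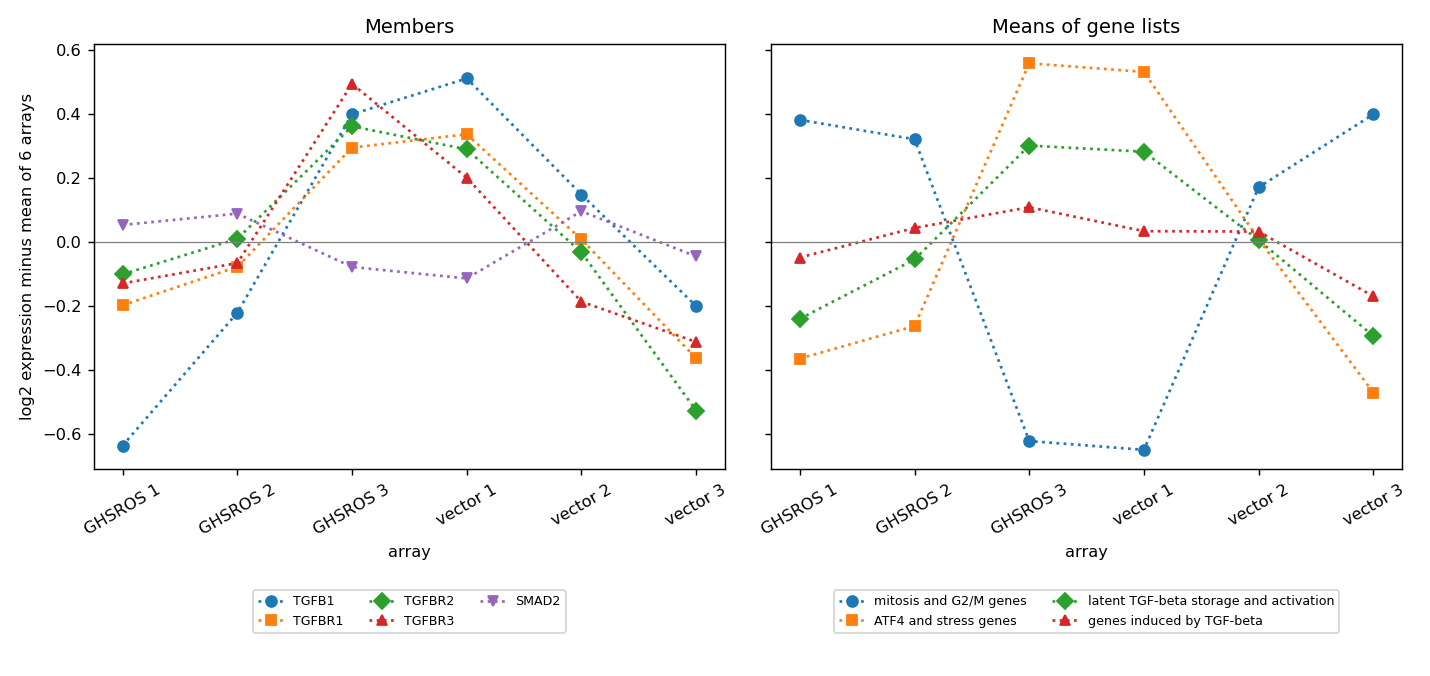
Log2 expression minus its mean over the 6 arrays (vertical axis) for 5 of the genes on the left and for the means of 4 gene lists on the right; arrays run along the horizontal axis and dotted lines only join the points of a gene or list. TGFB1 and the 3 receptor genes are highest on GHSROS array 3 and empty-vector array 1, where the mitosis genes are at 9.96 and 9.93, their lowest.

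Likeness between profiles was measured as the root mean square difference of log2 values over the 6 arrays, after each gene's own mean was removed. It is a description that shares arrays and scaling among all genes. For TGFBR2 the nearest of all genes were SYNJ2 (0.0399) and HIVEP2 (0.0415), and TGFBR1 was the 51st nearest at 0.0932. TGFBR3 came 241st at 0.130 and TGFB1 6914th at 0.297. For TGFBR3 the nearest were SUMF1 (0.0416) and PLPP3 (0.0461), and for TGFB1 PLEKHM1 (0.0823) and NYNRIN (0.0831). TGFBR1 was also the member nearest to TGFB1, at 0.224, where it ranked 676th among all genes.

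Of 17 measured genes that store and activate latent TGF-beta, 7 were higher and 10 lower in GHSROS arrays, with 0 past the test and a median log2 fold change of -0.02. The largest differences were 0.15 (SE 0.46) for MMP9, a gelatinase able to release the ligand, and -0.12 (SE 0.36) for LTBP2. FBN2 and MMP2, named after their values were seen, had groups without overlap, 2 of 17 genes beside 5.51% of all genes, at differences of 0.10 and -0.11. Both genes lay below the array medians on every array. On GHSROS array 3 and empty-vector array 1 the list had its highest means, 8.30 and 8.28, against 7.70 to 8.00 on the others. This pair was highest for 11 of the 17 genes and lowest for 2, THBS1 and FURIN. Of all genes, 18.9% were highest on both and 20.3% lowest. With the arrays centred on their medians the pair was highest for 9 of the 17, and after quantile normalization for 10.

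All 4 genes of latent TGF-beta binding proteins were highest on that pair, a set singled out after the values were seen. LTBP3 was at 9.04, 9.06 and 10.77 in GHSROS arrays 1 to 3, against 10.75, 9.28 and 8.82 in empty-vector arrays 1 to 3, so that the pair lay 1.46 above the next array. LTBP1 was at 8.49, 8.85 and 9.72 with GHSROS, against 10.13, 9.11 and 8.13 with the empty vector. THBS1, the gene of thrombospondin 1, an activator of the latent complex, was lowest on the pair and is also named after its values were seen, at 12.44, 12.31 and 11.78 with GHSROS and 11.94, 12.29 and 12.52 with the empty vector. Of other activation genes, ITGAV, ITGB6, ITGB8, MMP9 and BMP1 were highest on the pair, FURIN was lowest and MMP2 was neither. All of these but MMP9 are named after their values were seen. ITGB6 and MMP2 lay below the array medians on every array.

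Among genes commonly induced by TGF-beta, 24 of 33 measured were higher in GHSROS arrays and 9 lower, with 0 past the test and a median log2 fold change of 0.04. Of all genes 50.9% were higher. IL11, a cytokine of bone metastasis, differed by 0.49 (SE 0.37), BHLHE40 by 0.31 (SE 0.45) and VEGFA, the angiogenic growth factor, by 0.31 (SE 0.41). The IL11 difference was 0.08 without empty-vector array 1, 0.74 without GHSROS array 3 and 0.34 without both. ANGPTL4, a secreted lipase inhibitor, differed by -0.28 (SE 0.50), BAMBI, a decoy receptor, by -0.15 (SE 0.15) and LTBP2 by -0.12 (SE 0.36). SNAI1, a transcription factor of epithelial-mesenchymal transition, was the 1 gene of the 33 at an unadjusted p under 0.05, where 1.77% of all genes were, and is named for that reason after its values were seen. It was at 6.96, 6.98 and 6.80 with GHSROS, against 6.44, 6.72 and 6.69 with the empty vector, and its difference of 0.30 (SE 0.11) had an adjusted p of 1 in limma.

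Induced genes took both directions on the arrays that stood apart, where 14 of the 33 were highest and 7 lowest (63.6%, against 39.2% of all genes). Of those named here after their values were seen, PMEPA1, a feedback inhibitor of SMAD signalling, was at 8.00, 8.44 and 8.92 in GHSROS arrays 1 to 3, against 8.79, 8.47 and 7.54 in empty-vector arrays 1 to 3. SKIL, a SMAD corepressor that the pathway induces, was at 7.87, 7.99 and 8.40 with GHSROS and 8.31, 7.93 and 7.56 with the empty vector, and both genes were highest on the pair. CCN2, or connective tissue growth factor, was at 12.70, 12.66 and 11.66 with GHSROS, against 11.70, 12.39 and 12.73 with the empty vector. TNC, the gene of tenascin C, was at 10.42, 10.94 and 8.92 with GHSROS, against 9.08, 10.86 and 10.55 with the empty vector. CCN2 and TNC were therefore lowest on the arrays where TGFB1 and its receptors were highest.

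**Figure D4:**
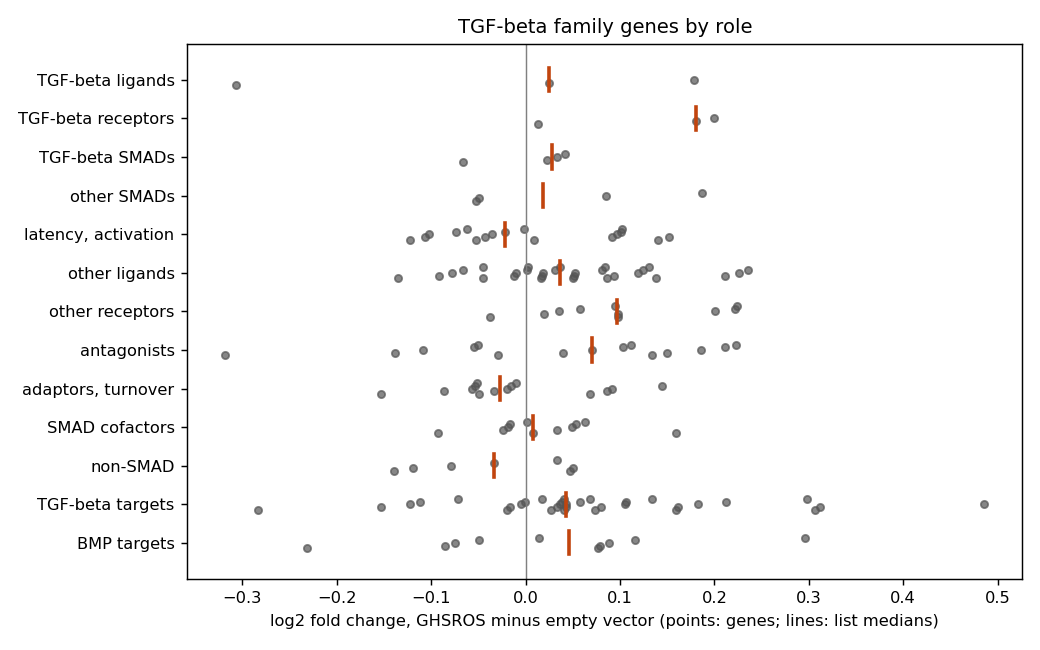
Log2 fold change, GHSROS minus empty vector (horizontal axis), of every measured gene (points) of 13 lists by role, with list medians as lines. List medians lie between -0.03 and 0.18, the highest that of the 3 receptor genes, and no point passed the test.

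In the other branches of the family 0 genes passed the test in every list. Counts of genes higher with GHSROS stand beside 50.9% of all genes in what follows. Of the other SMAD genes, SMAD9 of the BMP branch differed by 0.19 (SE 0.20) and SMAD1 by -0.05 (SE 0.09), with 2 of 4 higher. Other ligands were higher in 21 of 29 at a median of 0.04, from NODAL, below the array medians, at -0.14 (SE 0.14) to GDF15, a stress-induced cytokine, at 0.24 (SE 0.95). GDF15 reached 12.20 on GHSROS array 3 and 11.83 on empty-vector array 1, against at most 9.82 on the others. Other receptors were higher in 9 of 10 at a median of 0.10, with ACVR1C, an activin-type receptor also known as ALK7, at 0.22 (SE 0.11) and ACVR1 at -0.04 (SE 0.18). Groups that did not overlap, found for 5.51% of all genes, were those of ACVR1C among the 10 receptors, and of INHA, the inhibin alpha gene, among the 29 ligands, at 0.21 (SE 0.09). INHA is named after its values were seen. ACVR1C and INHA lay below the array medians on every array, among 2 of the 10 receptors and 17 of the 29 ligands that did so.

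Secreted antagonists were higher in 9 of 15, from NOG, which encodes the BMP trap noggin, at -0.32 (SE 0.15) to CHRDL1, a chordin-like antagonist, at 0.22 (SE 0.18). NOG was at 9.78, 10.17 and 9.63 with GHSROS, against 10.06, 10.33 and 10.15 with the empty vector, and the groups overlapped through GHSROS array 2. The CHRDL1 difference was 0.02 without GHSROS array 3 and 0.07 without both that array and empty-vector array 1. DCN, named after its values were seen, was the 1 antagonist gene of the 15 with groups that did not overlap, beside 5.51% of all genes. Its difference was -0.14 (SE 0.08), and it lay below the array medians. Adaptors and ubiquitin enzymes that control receptor and SMAD turnover were higher in 4 of 14. WWP1, a ubiquitin ligase that works with SMAD7, differed by 0.14 (SE 0.08), at 9.97, 9.95 and 10.00 with GHSROS and 9.87, 9.82 and 9.80 with the empty vector. It was the 1 gene of these 14 with groups that did not overlap, again beside 5.51% of all genes. BAMBI, in this list too, was its lowest. SMAD cofactors were higher in 7 of 11, with SKIL at 0.16 (SE 0.22) and the acetyltransferase gene EP300 at -0.09 (SE 0.12). Non-SMAD transducers were higher in 3 of 7, with RHOA at 0.05 (SE 0.09) and TRAF6, the ubiquitin ligase that couples the receptor to TAK1, at -0.14 (SE 0.11).

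Genes commonly induced by BMPs were higher in 6 of 10 at a median of 0.05, with ID2, an inhibitor of basic helix-loop-helix factors, at 0.30 (SE 0.22) and the homeobox gene MSX2 at -0.23 (SE 0.15). The ID2 difference was 0.06 without GHSROS array 3 and 0.20 without both that array and empty-vector array 1. The pair that stood apart was highest for 7 of these 10 genes, against 18.9% of all genes, and this count was not recomputed under either scaling. Of 5 endothelial markers, the list mean was 6.08, 6.11 and 6.57 in GHSROS arrays, against 6.40, 6.08 and 5.92 in empty-vector arrays, highest on the pair, but the pair was highest for only 1 of the 5, KDR, named after its values were seen, and VWF and TEK lay below the array medians throughout. Their part in the receptor values was not tested.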

How the data were processed

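Affymetrix Human Gene arrays, read in 1 colour, measured RNA of 6 MDA-MB-231 samples. The authors deposited 1 log2 value per probe set and array, and the submitters' processing notes name RMA without a version. RMA usually quantile normalizes arrays, which removes shifts common to most genes and can compress differences of dim probe sets. Groups and replicate numbers came from the sample titles. No array column was left out (0), and precision is limited by 3 arrays a group, since arrays carry no read depth.

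Of 28869 probe sets, 19310 had 1 symbol in the platform annotation, 1752 had several and stayed unnamed, and 7807 were not listed. Entrez identifiers of 19279 were found in a RefSeq table (GRCh38.p14), which changed 0 symbols. The brightest probe set per gene by mean of the arrays gave 18377 genes. R 4.3.3 and limma 3.58.1 (lmFit and eBayes, two-sided, with no term besides group) tested GHSROS minus empty vector, with Benjamini-Hochberg adjustment over all genes, a threshold of 0.05, moderated standard errors and 95% intervals. The test was tried on simulated data. The submitters' design text names biological replicates in each group. The labels do not say that these were grown or transfected separately. If they were not, p-values reflect only how these samples spread, which may be technical.

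The members and gene lists were chosen with earlier results of these data known, so lists are given by counts and medians with no list test. Named were all 10 members, the most positive and most negative gene of each list (3 of each sign for TGF-beta targets), any list gene past the threshold, and for the 3 members of widest range the 2 genes with the nearest profiles. Genes of the pathway lists outside this rule are said to be chosen after their values were seen. No rule was set for naming single cell type markers. Alternatives were quantile normalization, median centring, the replicate number as a block, only genes of at least median level, averaging the probe sets of a gene, a robust prior with an intensity trend, leaving out each array, and leaving out the pair that stood apart. The counts of genes highest or lowest on that pair were recomputed under both scalings, which was chosen after the data were seen. This was done for the members, the latent TGF-beta list, the TGF-beta targets and all genes.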

Additional observations from a re-analysis of the deposited data

How the results depend on the processing

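In limma the count of genes past the adjusted threshold was 0 under all 13 alternatives, for the 10 members, the list genes and all genes tested. At an unadjusted p under 0.05 there were 325 of all genes and 0 members. The count for all genes was 76 among the 9189 genes of at least median level, where fewer genes were tested, and 191 to 480 with single arrays left out. For members it was 0 to 1 in those omissions, TGFB1 without GHSROS array 3. Neither scaling, the mean of probe sets nor the variance prior turned any of 33 named genes.

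The sign of a difference often rested on single arrays. TGFB1, TGFB2 and TGFBR3 kept theirs in all 6 omissions. The log2 fold changes of the other 7 members spanned 0 in them, TGFB3 from -0.11 to 0.13, TGFBR1 from -0.17 to 0.18, TGFBR2 from -0.038 to 0.37, SMAD2 from -0.0043 to 0.10, SMAD3 from -0.11 to 0.12, SMAD4 from -0.028 to 0.072, SMAD7 from -0.16 to 0.074. Of the 23 other named genes 10 did so too, ACVR1 from -0.18 to 0.10, ANGPTL4 from -0.71 to 0.15, BHLHE40 from -0.16 to 0.63, GDF15 from -0.66 to 1.06, LTBP2 from -0.45 to 0.16, MMP9 from -0.27 to 0.52, RHOA from -0.0042 to 0.086, SKIL from -0.028 to 0.35, SMAD9 from -0.028 to 0.35, VEGFA from -0.12 to 0.62. Without a change of sign, single omissions moved IL11 from 0.08 to 0.74, ID2 from 0.06 to 0.44, CHRDL1 from 0.02 to 0.34, ACVR1C from 0.13 to 0.28, NOG from -0.47 to -0.20, MSX2 from -0.37 to -0.14, BAMBI from -0.32 to -0.05, NODAL from -0.22 to -0.01, EP300 from -0.18 to -0.02, TRAF6 from -0.20 to -0.05 and SMAD1 from -0.09 to -0.01. SNAI1 stayed between 0.21 and 0.36 and WWP1 between 0.13 and 0.16. Without the pair that stood apart TGFB3 was at -0.082, SMAD3 at -0.058, SMAD7 at 0.012, SMAD1 at 0.016 and RHOA at -0.0063, each with its sign turned, and the cause was not tested.

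With the replicate number as a block 0 genes passed and 223 had an unadjusted p under 0.05. Deviations of same-numbered arrays from their group means correlated at -0.71, 0.50 and -0.67 over genes, and arrays 1 and 3 of each group correlated best with the other number. These correlations cannot tell whether the numbers pair the samples, since the pair that stood apart carries different numbers and its deviations correlated at 0.83. How far TGFB3 and SMAD7 can be read is limited by their low signal.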
